A study of Homo sapiens with 22 samples.

Results

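The genes described here were 10 that RAS-ERK signalling is known to switch on and whose products restrain it or carry its output: the MAP kinase phosphatases DUSP4, DUSP5 and DUSP6, the pathway inhibitors SPRY2, SPRY4, SPRED1 and SPRED2, the ETS transcription factors ETV4 and ETV5, and PHLDA1. They were chosen by name, as a transcriptional readout of RAS-ERK activity and with earlier results of these data known. They were matched by symbol to the Ensembl identifiers of the count table, 10 of its 37908 genes. RNA-seq was carried out on H1299, an NRAS-mutant human lung carcinoma cell line of the non-small cell type, carrying an shRNA to BRCA2 that doxycycline (DOX) switches on. BRCA2-proficient cells received no DOX, and BRCA2-deficient cells received it at 2 µg/mL over 3 days. In each background, control siRNA or siRNA against β-catenin (siβ-catenin, targeting CTNNB1) was followed by 24 h with 250 nM LY2090314 (GSK3i), which blocks the kinase GSK3, or without it. Because GSK3 targets β-catenin for breakdown, the inhibitor lets β-catenin accumulate, and the siRNA asks which changes need β-catenin.

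There were 22 libraries in 8 groups: untreated (control siRNA, no inhibitor), GSK3i (control siRNA), siβ-catenin (no inhibitor), and both together, in each background. Each group held 3 libraries, except the BRCA2-proficient untreated and siβ-catenin groups, which held 2, numbered 2 and 3. No DOX was given to cells without the shRNA, so DOX and loss of BRCA2 cannot be told apart. The labels number the replicates without saying what separates them, so p-values measure the spread between these libraries. In bulk RNA, fewer cells expressing a gene and less of its RNA per cell cannot be told apart.

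As background, growth factor receptors activate RAS, which drives the kinases RAF, MEK and ERK in turn. Active ERK relieves repression by CIC and activates ETS factors, and these turn on inhibitors of the same cascade: DUSP6 removes phosphate from ERK in the cytoplasm, DUSP4 and DUSP5 act on nuclear MAP kinases, and the Sprouty and Spred proteins act upstream, between receptors and RAF. Transcripts of these genes therefore follow ERK activity in many cells, although other pathways can also change them.

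Library totals ran from 18.94 M to 29.28 M counts, which set the counting error. BRCA2 lay between 513.6 and 1111 normalised counts (counts divided by DESeq2 size factors) in the BRCA2-proficient libraries and between 71.4 and 225 in the BRCA2-deficient ones. CTNNB1 lay between 5206 and 8669 with control siRNA and between 977 and 2217 with siβ-catenin. AXIN2, a direct β-catenin target, lay between 1027 and 1747 in the GSK3i libraries and at 227 or below in all others. The epithelial keratin KRT18 lay between 5068 and 12950 and KRT8 between 2037 and 8200 in every library. KRT7, another keratin, was lower, between 93.6 and 460.5, and VIM, for vimentin, was higher, between 12640 and 35310. The leukocyte marker PTPRC was at 0 in 18 of 22 libraries and the endothelial marker CDH5 at 0 in 14. The hepatocyte marker ALB was at 0 in 1 library only, and at 7.85 or below in all.

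Some BRCA2-proficient libraries went against their labels. Each library was placed on the GSK3i response of BRCA2-deficient cells, as the mean over the 4285 genes called in that comparison, leaving out the 10 genes described here, with the untreated mean at 0% and the GSK3i mean at 100%. The library labelled BRCA2-proficient GSK3i with siβ-catenin, replicate 2, stood at 17.2%, beside the untreated libraries at 18.9% and 19.9%, whereas replicates 1 and 3 of its group stood at 87.9% and 92.2%. The library labelled BRCA2-proficient siβ-catenin without GSK3i, replicate 2, stood at 89.5%, and replicate 3 at 45.1%. In BRCA2-deficient cells the siβ-catenin libraries stood between -7.97% and 12.5%, and those with both treatments between 68.6% and 72.7%. PDCD4, chosen after its values were seen, shows the same: 1998 normalised counts in the library labelled with both treatments, replicate 2, against 105 and 109 in the others of its group. Labels were kept as given, and results that use either replicate 2 are given with and without it, unless stated to be as labelled. Without the siβ-catenin replicate 2, that group is replicate 3 alone, which is then assumed to vary like the other groups of the fit.

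**Figure D1:**
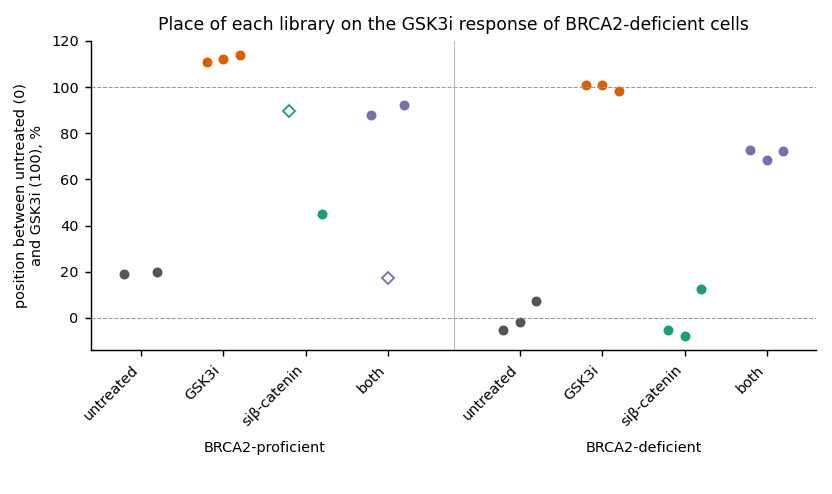
Position of each of the 22 libraries (vertical axis, %) between the untreated (0) and GSK3i (100) means of BRCA2-deficient cells, by group. Open diamonds mark the library labelled siβ-catenin, replicate 2 (89.5%), and the library labelled with both treatments, replicate 2 (17.2%), in BRCA2-proficient cells.

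On GRCh37, the 3 phosphatases lie on chromosome 8 (DUSP4), chromosome 10 from 112257665 to 112271291 (DUSP5) and chromosome 12 from 89741012 to 89746278 (DUSP6). SPRY2 lies on chromosome 13 from 80910111 to 80915261 and SPRY4 on chromosome 5 from 141689992 to 141706020. SPRED1 lies on chromosome 15 from 38545037 to 38649450 and SPRED2 on chromosome 2 from 65537985 to 65659771. ETV4 lies on chromosome 17 from 41605212 to 41656988, ETV5 on chromosome 3 from 185764103 to 185828107, and PHLDA1 on chromosome 12 from 76419227 to 76425556. All are protein-coding. Other annotated genes overlap 6 of them, on the opposite strand for DUSP6, SPRY4, ETV4 (DHX8), ETV5 and PHLDA1 and on the same strand for SPRED2 and ETV5 (DGKG). The strand setting of the counting was not stated, so reads from overlapping exons cannot be told apart.

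DUSP4 was hardly detected. Its raw counts ran from 0 to 7 per library, 4 libraries were at 0 and none reached 10, so it passed no filter and was not tested, which leaves 9 of 10 genes tested in each comparison. Per kilobase of exon, PHLDA1, a protein that restrains growth and survival in several cell types, was the most abundant, at a median of 1169 normalised counts over the 22 libraries. DUSP5 followed at 747, SPRY2 at 538, ETV5 at 533, SPRED2 at 395, SPRY4 at 318, SPRED1 at 174, DUSP6 at 126 and ETV4 at 83.7. The range over conditions did not follow abundance: the highest group mean was 6.75 times the lowest for DUSP6 and 6.1 times for ETV4, against 1.43 times for SPRED2 and 1.66 times for SPRED1. For the other 5 tested genes the ratio lay between 2.05 (SPRY2) and 2.91 (SPRY4 and PHLDA1).

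**Figure D2:**
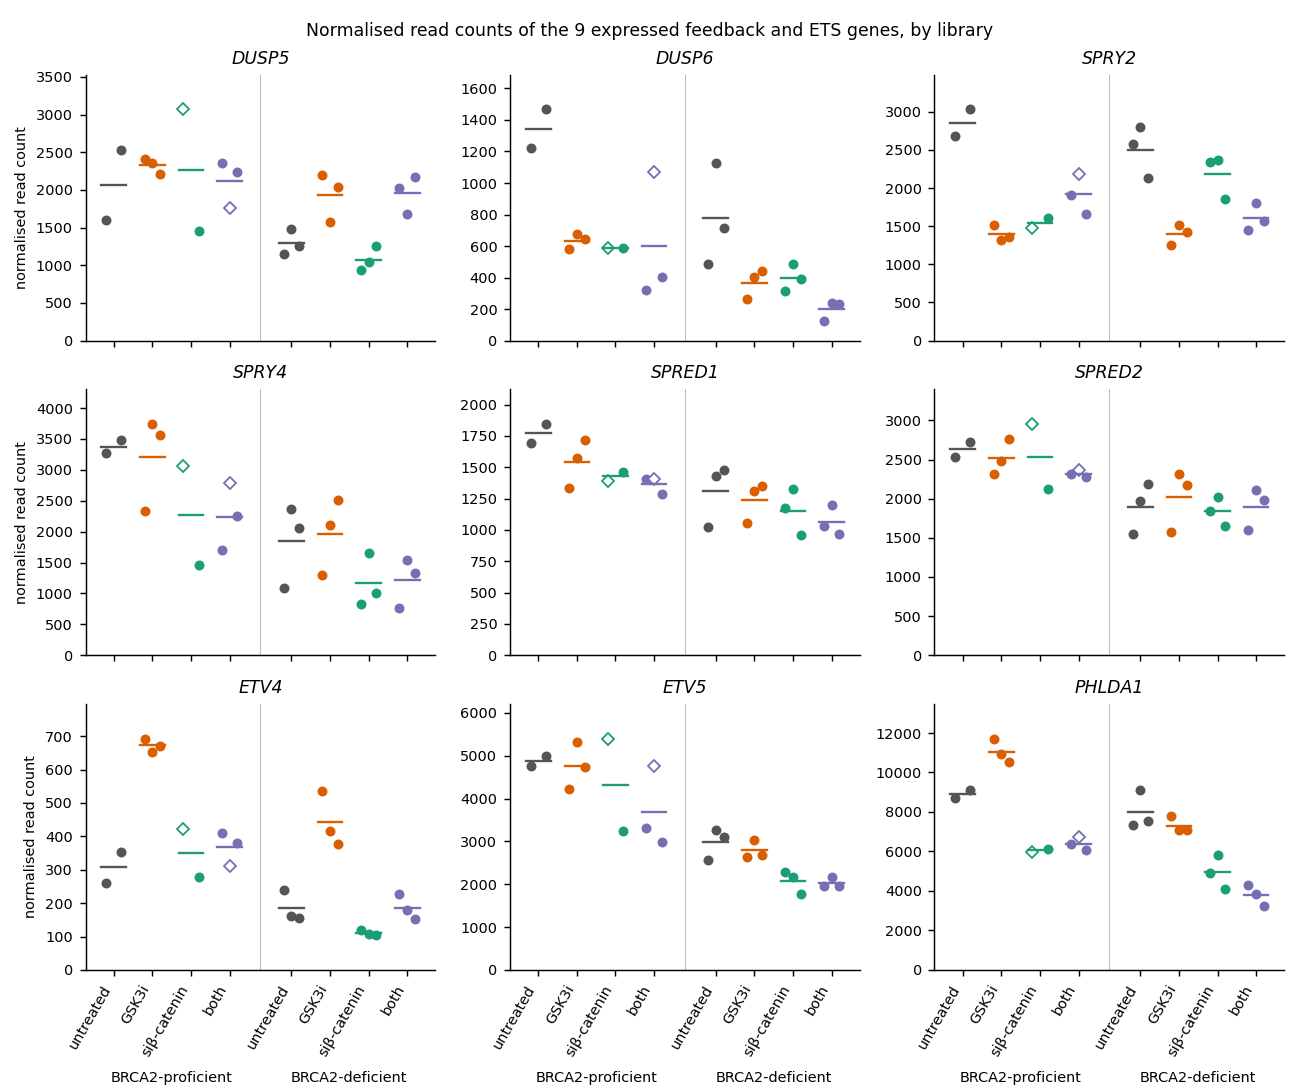
Normalised read count (vertical axes) of the 9 tested genes in each library (points), by treatment and background. Lines are group means and open diamonds mark the libraries that went against their labels, and DUSP6 and SPRY2 are highest in the untreated groups, ETV4 in the GSK3i groups, and PHLDA1 is lower in all libraries with siβ-catenin than in all others.

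Promoter sequences are shown for DUSP6 and SPRY2, which fell together with GSK3i, and for PHLDA1, which fell with siβ-catenin. RefSeq promoter entries (GRCh38.p14) were matched for 6 of the 10 genes, DUSP6, SPRY2, SPRY4, SPRED1, SPRED2 and PHLDA1, and not for DUSP4, DUSP5, ETV4 and ETV5. Each line below holds the 250 bases before the outermost start, 5′ to 3′ on the gene's own strand, the minus strand in each: chr12:89352502-89352751 for DUSP6, chr13:80341127-80341376 for SPRY2 and chr12:76031777-76032026 for PHLDA1. Capitals mark matches to the motifs searched.
DUSP6: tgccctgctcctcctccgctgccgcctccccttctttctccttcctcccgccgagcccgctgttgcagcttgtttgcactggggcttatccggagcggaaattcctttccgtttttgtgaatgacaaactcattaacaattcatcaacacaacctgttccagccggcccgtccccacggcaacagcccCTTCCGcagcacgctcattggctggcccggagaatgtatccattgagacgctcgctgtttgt
SPRY2: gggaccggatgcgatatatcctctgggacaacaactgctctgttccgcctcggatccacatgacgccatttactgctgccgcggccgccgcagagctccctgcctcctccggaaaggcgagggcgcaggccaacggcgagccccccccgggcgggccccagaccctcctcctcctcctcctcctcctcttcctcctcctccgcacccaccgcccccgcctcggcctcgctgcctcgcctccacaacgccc
PHLDA1: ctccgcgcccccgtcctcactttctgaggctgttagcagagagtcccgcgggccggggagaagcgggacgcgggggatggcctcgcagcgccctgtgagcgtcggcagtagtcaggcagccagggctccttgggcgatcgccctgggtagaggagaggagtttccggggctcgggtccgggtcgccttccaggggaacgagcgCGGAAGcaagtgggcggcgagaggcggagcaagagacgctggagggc
On both strands, 4 motifs were searched: the ETS string CGGAAG, the CIC octamers TGAATGAA and TGAATGGA, the AP-1 site TGANTCA, and the TCF/LEF core as CTTTGA or CTTTGT. The ETS string is narrower than the GGAA core of ETS sites, and GGAA in other surroundings, as in the SPRY2 window, was not counted. DUSP6 held 1 ETS string, on the reverse strand, 62 to 57 bases before the start. PHLDA1 held 1 on the forward strand, 47 to 42 bases before it, and SPRY2 held no match. Of the 6 windows, 2 held the ETS string, 1 (SPRED2) a TCF/LEF core and none a CIC or AP-1 match, and no matches overlapped. Among all 35116 RefSeq windows of this length, 16.5% held the ETS string, 22.8% a TCF/LEF core, 6.57% the AP-1 site and 2.19% a CIC octamer. The windows of SPRY2 and PHLDA1 were each 70.4% G and C and that of DUSP6 57.2%, against a median of 58.0% over all windows.

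The effect of GSK3 inhibition was compared first. In both backgrounds GSK3i lowered DUSP6 and SPRY2 and raised ETV4. A gene was called where its Benjamini-Hochberg adjusted p from the DESeq2 Wald test, fitted over all genes of the table, was below 0.05 and its log2 fold change beyond 0.5 in size. Of the 9 genes, 1 rose and 2 fell in BRCA2-proficient cells, where 11.8% of all 16771 genes tested rose and 14.2% fell, and 2 rose and 2 fell in BRCA2-deficient cells, where 11.6% rose and 13.8% fell. Those shares are near the background for a group of 9. The median log2 fold changes of the 9 were -0.08 (BRCA2-proficient) and -0.09 (BRCA2-deficient), beside 0.00 and 0.03 over all genes.

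DUSP6, the cytoplasmic ERK phosphatase, had 1219 and 1468 normalised counts in the untreated BRCA2-proficient libraries and 583.5, 674 and 644 with GSK3i. The corresponding values in BRCA2-deficient cells were 487, 1125 and 713 untreated and 265, 402 and 439 with GSK3i. The groups did not overlap in either background, and the untreated BRCA2-deficient libraries were the most spread. DUSP6 fell by 1.10 on the log2 scale (SE 0.16, adjusted p = 5.94e-11) in BRCA2-proficient cells and by 1.07 (SE 0.32, adjusted p = 0.00402) in BRCA2-deficient cells. The latter was called in 5 of 5 other settings and in 5 of 6 fits that left out a library. It was lost without untreated replicate 2, where the log2 fold change was -0.71 and adjusted p = 0.0963. DUSP5, the nuclear ERK phosphatase, went the other way in BRCA2-deficient cells, from 1148, 1477 and 1259 to 2198, 1578 and 2036 normalised counts, without overlap. This was a rise of 0.58 (SE 0.19, adjusted p = 0.0121), lost in 3 of 6 fits that left out a library. In BRCA2-proficient cells DUSP5 had 1599 and 2525 untreated and between 2215 and 2411 with GSK3i, so the groups overlapped (log2 fold change 0.16, 95% interval -0.19 to 0.51, adjusted p = 0.531). Without untreated replicate 3 it was 0.53 and was called (adjusted p = 0.035), and without untreated replicate 2 it was -0.13.

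Of the Sprouty and Spred genes, whose products restrain the steps between receptor and RAF, only SPRY2 passed the test. SPRY2 had 2678 and 3032 normalised counts untreated and 1512, 1318 and 1364 with GSK3i in BRCA2-proficient cells, and 2575, 2793 and 2137 against 1254, 1509 and 1422 in BRCA2-deficient cells. Every treated library was below every untreated library. The fall was 1.05 on the log2 scale (SE 0.14, adjusted p = 1.26e-12) and 0.84 (SE 0.17, adjusted p = 1.17e-05), and it was called without any 1 library in both backgrounds. SPRY4, by contrast, had 3270 and 3485 untreated and 2335, 3744 and 3558 with GSK3i in BRCA2-proficient cells, with a log2 fold change of -0.09 (95% interval -0.45 to 0.28). In BRCA2-deficient cells it was 0.10 (95% interval -0.52 to 0.72). SPRED1 and SPRED2 had log2 fold changes between -0.22 and 0.09 in the 2 backgrounds, with adjusted p of 0.273 or more.

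ETV4, an ETS factor of the PEA3 group, was the member that rose most. It had 260 and 354 normalised counts untreated and 693, 653 and 672 with GSK3i in BRCA2-proficient cells, and 238, 162.5 and 154.5 against 535, 417 and 376 in BRCA2-deficient cells. The groups did not overlap, and the rise was 1.11 (SE 0.18, adjusted p = 1.14e-08) and 1.26 (SE 0.25, adjusted p = 5.55e-06) on the log2 scale, called without any 1 library. ETV5, of the same group, was not called: its log2 fold change was -0.05 (95% interval -0.33 to 0.22) and -0.10 (95% interval -0.41 to 0.22). PHLDA1 had 8731 and 9135 untreated and 11720, 10920 and 10540 with GSK3i in BRCA2-proficient cells, a log2 fold change of 0.29 (SE 0.12, adjusted p = 0.0444) that is under the size criterion of 0.5. In BRCA2-deficient cells the groups overlapped, with a log2 fold change of -0.13 (SE 0.15, adjusted p = 0.57).

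Whether the response to GSK3i differed between backgrounds was tested as an interaction. None of the 9 genes was called by DESeq2, and 0.0345% of 17381 genes were, 6 genes in all. By edgeR 0 of the 9 and 0 genes overall were called, and 1 of the 9 had an unadjusted p below 0.05 with either tool. This was PHLDA1, whose response was lower in BRCA2-deficient cells by 0.44 on the log2 scale (95% interval -0.77 to -0.11, unadjusted p = 0.00921, adjusted p = 1). The difference for DUSP6 was 0.01 (95% interval -0.80 to 0.82) and for SPRY2 0.19 (95% interval -0.22 to 0.59).

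GSK3i was also given after β-catenin depletion. In BRCA2-deficient cells DUSP6 and ETV4 still moved in their respective directions and DUSP5 rose more clearly, while SPRY2 moved less than the size criterion. Of the 9 genes 2 rose and 1 fell, where 8.56% of 17610 genes rose and 11.5% fell. DUSP6 had 314, 484 and 393 normalised counts with siβ-catenin alone and 126, 239 and 232 with both treatments, a fall of 0.99 (SE 0.25, adjusted p = 0.000956). DUSP5 had 936, 1040 and 1251 against 2030, 1686 and 2173, a rise of 0.87 (SE 0.17, adjusted p = 1.22e-05). ETV4 had 120, 107 and 104 against 227, 180 and 151, a rise of 0.76 (SE 0.23, adjusted p = 0.00672). The groups did not overlap for any of these 3 genes. SPRY2 had 2340, 2362 and 1861 against 1446, 1799 and 1568, a log2 fold change of -0.44 (SE 0.16, adjusted p = 0.0268).

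In BRCA2-proficient cells the same comparison uses both libraries that went against their labels. As labelled, none of the 9 genes was called by DESeq2, 0 by edgeR, and 0 had an unadjusted p below 0.05, while 0.047% of 17010 genes rose and 0.00588% fell. Without both libraries, which leaves 2 libraries against 1 and no filter on low counts, DUSP5 was called higher, by 0.66 (SE 0.16, adjusted p = 0.000877) in place of -0.09 as labelled, and 2.1% of 29308 genes rose and 1.65% fell. DUSP6 was at -0.68 (95% interval -1.20 to -0.16, adjusted p = 0.0794) and ETV4 at 0.52 (95% interval -0.03 to 1.07).

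β-catenin depletion under GSK3i asks which part of the inhibited state needs β-catenin. In both backgrounds siβ-catenin lowered ETV4 and PHLDA1, and as labelled no member was called higher. As labelled, 2 of the 9 fell in BRCA2-proficient cells, where 3.18% of 16393 genes rose and 1.92% fell, and 3 of the 9 fell in BRCA2-deficient cells, where 2.95% of 17025 genes rose and 2.57% fell. Without the library labelled with both treatments, replicate 2, 5 of the 9 fell in BRCA2-proficient cells, where 2.54% of 16630 genes rose and 2.16% fell. The shares of members that fell are above those backgrounds, but the members were chosen with earlier results of these data known. Their mean counts lay between percentiles 21 (ETV4) and 95 (PHLDA1) of genes with a mean of at least 100. The backgrounds cover all genes tested, less abundant ones among them, so these shares do not test an excess. The median log2 fold change of the 9 was -0.15 as labelled, -0.58 without that library, and -0.47 in BRCA2-deficient cells, beside 0.00 and -0.02 over all genes in the fits as labelled.

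ETV4 had 693, 653 and 672 normalised counts with GSK3i and 409, 311 and 381 with both treatments in BRCA2-proficient cells, and 535, 417 and 376 against 227, 180 and 151 in BRCA2-deficient cells. The groups did not overlap. ETV4 fell by 0.85 (SE 0.17, adjusted p = 3.7e-05) and by 1.26 (SE 0.23, adjusted p = 5.23e-06), and by 0.75 (SE 0.15, adjusted p = 1.9e-05) in BRCA2-proficient cells without the doubted library. As labelled, ETV4 with both treatments thus lay at 367 ± 50.6 (SD, n = 3) in BRCA2-proficient cells, against 307 ± 66.5 (n = 2) untreated. The doubted library was the lowest of that group, at 311. Replicates 1 and 3, at 409 and 381, lay above the untreated libraries, at 260 and 354. In BRCA2-deficient cells ETV4 lay at 186 ± 38.2 against 185 ± 46.1 (n = 3 each).

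PHLDA1 fell in every siβ-catenin group. In BRCA2-proficient cells it had 6370, 6751 and 6061 normalised counts with both treatments against 10540 to 11720 with GSK3i, and in BRCA2-deficient cells 4322, 3849 and 3219 against 7778, 7092 and 7069. The fall was 0.77 (SE 0.12, adjusted p = 1.01e-07) and 0.95 (SE 0.16, adjusted p = 1.85e-07), and 0.81 (SE 0.11, adjusted p = 8.44e-11) without the doubted library.

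DUSP6 depended on that library in BRCA2-proficient cells. Its normalised counts there were 324 and 402 in replicates 1 and 3 and 1067 in the library labelled replicate 2, against 583.5, 674 and 644 with GSK3i alone. The log2 fold change was -0.05 (SE 0.37, adjusted p = 0.958) as labelled and -0.78 (SE 0.17, adjusted p = 0.000174) without it. In BRCA2-deficient cells DUSP6 had 126, 239 and 232 against 265, 402 and 439, without overlap. This was a fall of 0.90 (SE 0.30, adjusted p = 0.0471). It was called in 3 of 5 other settings, the replicate number as a block among them, with adjusted p as low as 8.36e-07. It was not called by edgeR (adjusted p = 0.167) or in 1 model over all groups. Of 6 fits that left out a library, 1 called it, with adjusted p of up to 0.295 in the others. The 1 fit was that without GSK3i replicate 1, in which 5 of the 9 were called. SPRY4 and ETV5 were likewise called without the doubted library, at -0.69 (SE 0.21, adjusted p = 0.0197) and -0.58 (SE 0.14, adjusted p = 0.00153), but not with it, at -0.49 and -0.34. In BRCA2-deficient cells SPRY4 was at -0.70 (SE 0.31, adjusted p = 0.185) and was called with the replicate number as a block (adjusted p = 3.26e-09). ETV5 was at -0.47 (SE 0.13, adjusted p = 0.0128), under the size criterion. SPRY2 was the 1 member with log2 fold changes above 0 in both backgrounds, at 0.48 (SE 0.16, adjusted p = 0.0429) and 0.20 (SE 0.16, adjusted p = 0.602), neither of them called. In BRCA2-proficient cells SPRY2 was at 0.37 (adjusted p = 0.0752) without the doubted library, and was called higher only without replicate 3 of both treatments.

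The difference between backgrounds in the response to siβ-catenin under GSK3i was tested in the same way. None of the 9 genes was called, 0 by edgeR, and 0 had an unadjusted p below 0.05, while 0.0057% of 17544 genes, 1 gene, was called. DUSP6 had the largest difference among the 9, -0.82 (95% interval -1.87 to 0.23) as labelled and -0.10 (95% interval -0.86 to 0.66) without the doubted library.

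**Figure D3:**
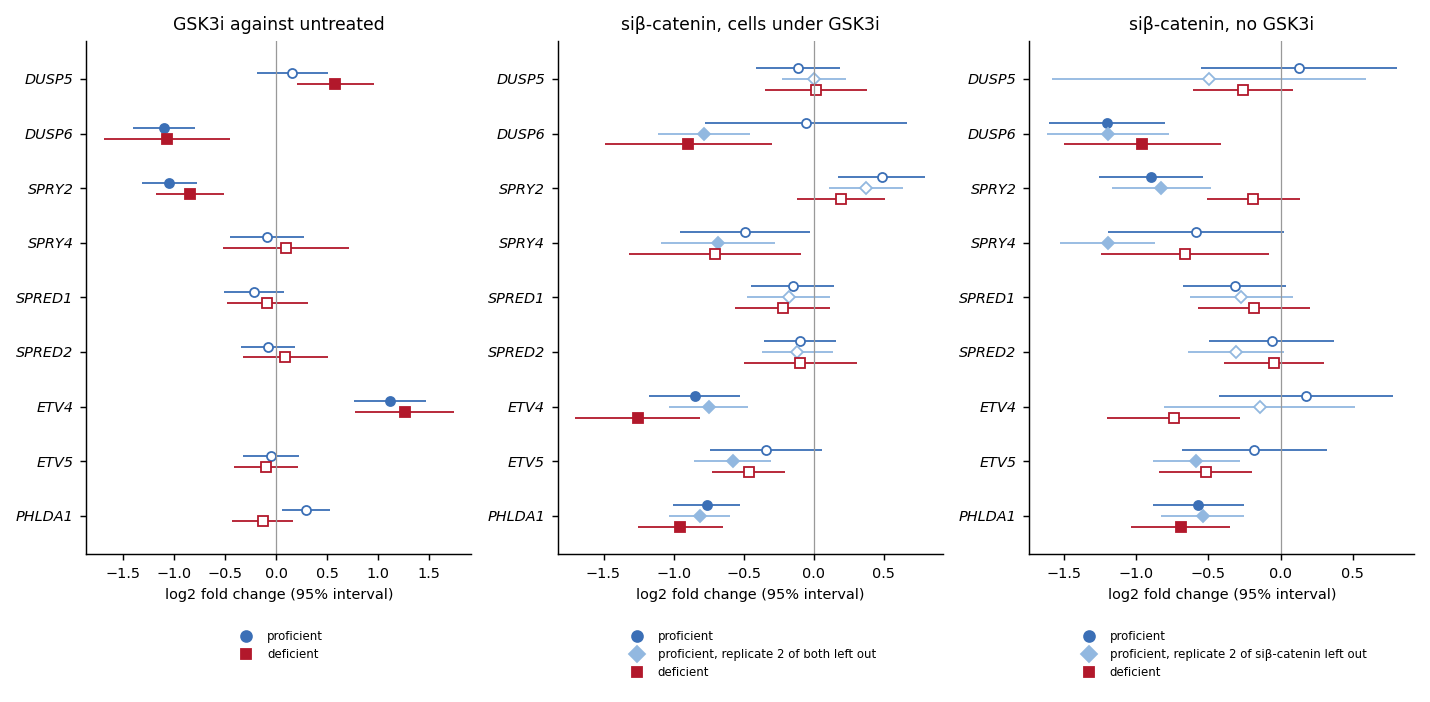
Log2 fold change (horizontal axes) with its 95% interval for the 9 tested genes with GSK3i (left), siβ-catenin under GSK3i (middle) and siβ-catenin without GSK3i (right), in BRCA2-proficient cells (circles, and diamonds without the library that went against its label) and BRCA2-deficient cells (squares). Filled symbols were called, and DUSP6 and SPRY2 lie left of 0 and ETV4 right of 0 with GSK3i, and PHLDA1 lies left of 0 in every comparison with siβ-catenin.

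Without GSK3i, DUSP6 and PHLDA1 were called lower with siβ-catenin in both backgrounds as labelled, with calls that depended on the fit. In BRCA2-deficient cells, where no library went against its label, all 9 genes had log2 fold changes below 0, with a median of -0.52 beside 0.01 over all genes. Of these 2 were called lower, where 1.21% of 17324 genes rose and 0.82% fell. DUSP6 had 487, 1125 and 713 normalised counts untreated and 314, 484 and 393 with siβ-catenin, so that only the highest depleted and the lowest untreated library nearly met. It fell by 0.96 (SE 0.28, adjusted p = 0.0322). PHLDA1 had 7318, 9130 and 7567 against 4899, 5834 and 4085, without overlap, and fell by 0.69 (SE 0.18, adjusted p = 0.00853). Each of these calls was lost in 3 of 6 fits that left out a library and by edgeR (adjusted p = 0.214 and 0.137), which called 0 of 17324 genes. The fits that lost both were those without siβ-catenin replicate 1, siβ-catenin replicate 3 or untreated replicate 2, while 4 members were called without untreated replicate 1. With the replicate block, ETV5 (-0.52, adjusted p = 0.0364) and SPRY4 (-0.65, adjusted p = 0.00737) were called as well, against adjusted p of 0.0624 and 0.273 without it. ETV4 had 238, 162.5 and 154.5 against 120, 107 and 104, without overlap, at -0.74 (SE 0.24, adjusted p = 0.0644).

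In BRCA2-proficient cells 3 of the 9 fell as labelled, where 1.01% of 17654 genes rose and 1.96% fell, and 5 of the 9 without the library labelled siβ-catenin, replicate 2, where 0.421% of 29226 genes rose and 1.01% fell. DUSP6 had 1219 and 1468 untreated and 589.5 and 586 with siβ-catenin, a fall of 1.20 (SE 0.21, adjusted p = 2.49e-06), and of 1.20 (SE 0.22, adjusted p = 1.12e-05) without replicate 2. PHLDA1 had 8731 and 9135 against 5994 and 6124, a fall of 0.57 (SE 0.16, adjusted p = 0.021) that was lost with the replicate block (adjusted p = 0.231), and of 0.54 (SE 0.15, adjusted p = 0.0111) without replicate 2. SPRY2 had 2678 and 3032 against 1472 and 1606, a fall of 0.90 (SE 0.18, adjusted p = 0.000245), and of 0.83 (SE 0.18, adjusted p = 0.000363) without replicate 2. Replicates 2 and 3 stood at 89.5% and 45.1% of the GSK3i response. GSK3i with control siRNA moved DUSP6 by -1.10 and SPRY2 by -1.05 in these cells, and the part of that in these falls was not tested. SPRY4 (-1.20, adjusted p = 8.75e-10) and ETV5 (-0.58, adjusted p = 0.00949) were called only without replicate 2, which had 3057 and 5402 normalised counts against 1468 and 3252 in replicate 3. By edgeR, 0 of the 9 were called as labelled and 3 had an unadjusted p below 0.05. By DESeq2, 0 were called without either of the untreated libraries.

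Whether GSK3i acted differently after β-catenin depletion was tested as an interaction within each background. In BRCA2-deficient cells none of the 9 was called by DESeq2 or edgeR, 0 had an unadjusted p below 0.05 with either tool, and 0.491% of 18117 genes were called. The difference was 0.07 (95% interval -0.81 to 0.95) for DUSP6, -0.52 (95% interval -1.15 to 0.12) for ETV4 and 0.39 (95% interval -0.03 to 0.81) for SPRY2. In BRCA2-proficient cells SPRY2 (1.37, SE 0.23, adjusted p = 3.47e-06) and ETV4 (-1.03, SE 0.32, adjusted p = 0.0245) were called, beside 7.65% of 17093 genes. Without both doubted libraries SPRY2 was at 1.20 (SE 0.22, adjusted p = 1.8e-05), ETV4 was at -0.60 (SE 0.29, adjusted p = 0.272), and 3.52% of 16825 genes were called. By edgeR 0 of the 9 were called, SPRY2 with an adjusted p of 0.0607. SPRY2 was called in 10 of 10 fits that left out a library and ETV4 in 4 of 10.

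Of the 9 genes, 3 were called lower in BRCA2-deficient than in BRCA2-proficient cells untreated, 4 under GSK3i, 5 after siβ-catenin alone and 5 with both treatments, while SPRY2, SPRED1 and SPRED2 were called lower in none of the 4 states. All 9 log2 fold changes were below 0 untreated, under GSK3i and with both treatments, and 8 of 9 after siβ-catenin alone. By DESeq2 as labelled no gene was called higher, with SPRY2 after siβ-catenin called higher in some other fits. The medians of the 9 were -0.70, -0.60, -0.59 after siβ-catenin (-0.38 without the doubted library) and -0.76 with both treatments (-0.65 without it), beside values between -0.01 and 0.00 over all genes in the fits as labelled. The 4 comparisons use different libraries, but the 9 genes are not independent of each other.

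Untreated, 3 of the 9 fell, where 2.77% of 17157 genes rose and 4.14% fell. ETV5 had 4765 and 4998 normalised counts in BRCA2-proficient and 2567, 3261 and 3112 in BRCA2-deficient cells, a fall of 0.73 (SE 0.18, adjusted p = 0.00144). SPRY4 had 3270 and 3485 against 1095, 2374 and 2061, a fall of 0.89 (SE 0.30, adjusted p = 0.0363), and DUSP5 had 1599 and 2525 against 1148, 1477 and 1259, a fall of 0.70 (SE 0.24, adjusted p = 0.043). The groups did not overlap for these 3 genes. The call of DUSP5 was lost with the replicate block (-0.57, adjusted p = 0.542), while ETV4, at -0.76 (SE 0.27, adjusted p = 0.0584), was called with it (-0.95, adjusted p = 0.0364). By edgeR neither DUSP5 (adjusted p = 0.121) nor SPRY4 (adjusted p = 0.13) was called, and in 1 model over all groups neither was (adjusted p = 0.0872 and 0.146). Leaving out BRCA2-proficient replicate 3 left 0 of the 9 called, and leaving out replicate 2 left 1. DUSP6 had 1219 and 1468 against 487, 1125 and 713, at -0.82 (SE 0.32, adjusted p = 0.0847), and was called without BRCA2-deficient replicate 2 (-1.18, adjusted p = 0.00208). SPRY2 and PHLDA1 were the least changed, at -0.22 (95% interval -0.57 to 0.14) and -0.18 (95% interval -0.52 to 0.15).

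Under GSK3i, 4 of the 9 fell, where 3.76% of 16336 genes rose and 3.05% fell. ETV5 had 4215, 5318 and 4730 against 2640, 3038 and 2691, and PHLDA1 had 11720, 10920 and 10540 against 7778, 7092 and 7069, both without overlap. They fell by 0.77 (SE 0.15, adjusted p = 1.85e-05) and 0.60 (SE 0.11, adjusted p = 5.08e-06). DUSP6 fell by 0.78 (SE 0.22, adjusted p = 0.00875) and ETV4 by 0.61 (SE 0.17, adjusted p = 0.00564), but neither was called by edgeR (adjusted p = 0.0772 and 0.057), and ETV4 was called in 1 of 6 fits that left out a library, where its log2 fold change lay between -0.75 and -0.52. SPRY4, at -0.71 (SE 0.27, adjusted p = 0.0836), passed once the replicate number was a block (adjusted p = 5.43e-09). SPRY2 was at 0.00 (95% interval -0.29 to 0.28). Without GSK3i replicate 2 or 3 of the BRCA2-proficient group, 2 of the 9 were called.

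With both treatments, 5 of the 9 fell, where 3.38% of 17046 genes rose and 4.36% fell. Without the library labelled BRCA2-proficient, both treatments, replicate 2, 4 fell, where 4.62% of 17455 genes rose and 4.57% fell. DUSP6 moved most with that library: it had 324, 1067 and 402 in BRCA2-proficient cells against 126, 239 and 232, a fall of 1.59 (SE 0.39, adjusted p = 0.00185) as labelled and of 0.88 (SE 0.29, adjusted p = 0.0243) without it. By edgeR DUSP6 was not called (adjusted p = 0.0887). ETV4 (-0.99, and -1.10 without it), ETV5 (-0.87, and -0.65 without it) and PHLDA1 (-0.76, and -0.73 without it) were called in both fits, with adjusted p of at most 0.00102. SPRY4, at -0.89 (SE 0.27, adjusted p = 0.0179), was at -0.71 (adjusted p = 0.0654) without it, was called in 2 of 6 fits that left out a library, and was not called by edgeR (adjusted p = 0.108) or in 1 model over all groups (adjusted p = 0.0633).

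After siβ-catenin alone, 5 of the 9 fell as labelled, where 13.6% of 17813 genes rose and 13.8% fell. Without the BRCA2-proficient library labelled replicate 2, 2 fell, where 9.07% of 18631 genes rose and 9.32% fell. ETV4 had 421 and 278 normalised counts in BRCA2-proficient cells against 120, 107 and 104 in BRCA2-deficient cells, a fall of 1.69 (SE 0.26, adjusted p = 4.54e-09), and of 1.37 (SE 0.33, adjusted p = 0.000375) without replicate 2. ETV5 fell by 1.08 (SE 0.24, adjusted p = 7.73e-05), and by 0.69 (SE 0.21, adjusted p = 0.00956) without it. DUSP5 (-1.10), SPRY4 (-0.98) and DUSP6 (-0.59, adjusted p = 0.037, and 0.369 with the replicate block) were called only with replicate 2, and stood at -0.47, -0.37 and -0.60 without it. SPRY2 was the 1 member above 0, at 0.48 (SE 0.18, adjusted p = 0.0261), under the size criterion, and at 0.41 (adjusted p = 0.174) without replicate 2. It passed that criterion by edgeR (0.50, adjusted p = 0.04), with TMM size factors (0.50, adjusted p = 0.0209), in 1 model over all groups (0.51, adjusted p = 0.00833), and without replicate 3 of either siβ-catenin group (0.54 and 0.58). The BRCA2-proficient siβ-catenin libraries, replicates 2 and 3, stood at 89.5% and 45.1% of the GSK3i response. The BRCA2-deficient ones stood between -7.97% and 12.5%. The part of this in the differences of this comparison, with or without replicate 2, was not tested.

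**Figure D4:**
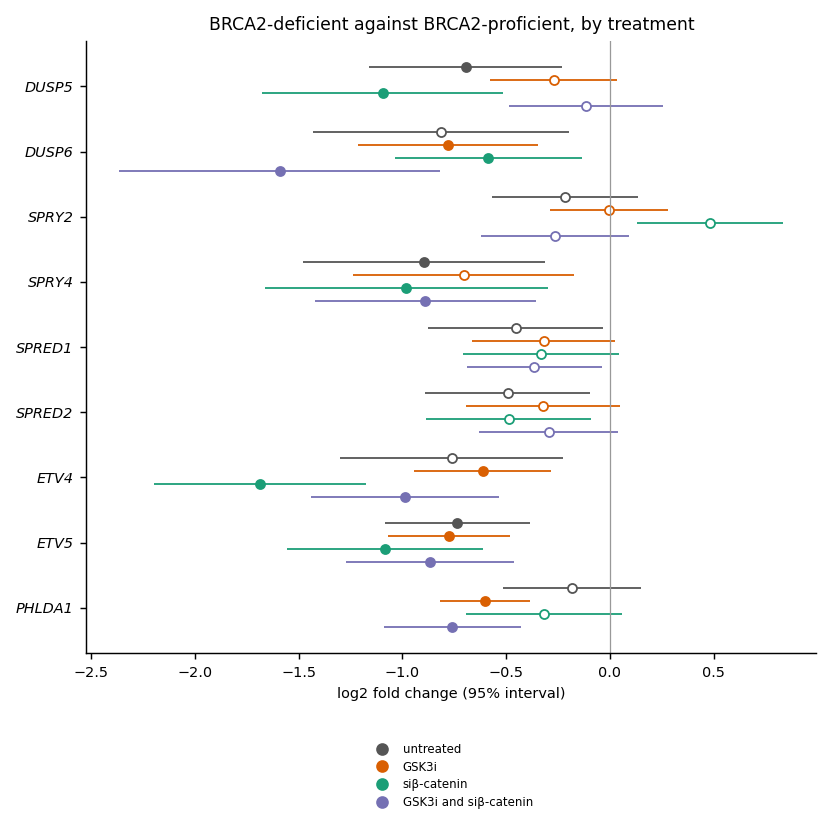
Log2 fold change (horizontal axis) of BRCA2-deficient against BRCA2-proficient cells with its 95% interval, for the 9 tested genes in each of the 4 treatment states, with all libraries as labelled. Filled symbols were called, and nearly all points lie left of 0, with ETV5 called in all 4 states, and SPRY2 right of 0 after siβ-catenin.

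DUSP6 had the widest range over the 8 groups. Its group means, in normalised counts, ran from 1343 ± 176 (SD, n = 2) in untreated BRCA2-proficient cells through 775 ± 324 (n = 3) in untreated BRCA2-deficient cells, 634 ± 45.9 (n = 3), 598 ± 408 (n = 3) and 588 ± 2.78 (n = 2) in BRCA2-proficient cells with GSK3i, both treatments and siβ-catenin, to 397 ± 84.8, 369 ± 91.9 and 199 ± 63.2 (n = 3 each) in BRCA2-deficient cells with siβ-catenin, GSK3i and both treatments. Neighbours in this order overlapped between the second and the fifth place and between the sixth and the seventh, and did not overlap at the other 3 steps. Over the 8 group means, centred on the log2 scale, the genes nearest to DUSP6 among 11898 with a mean of at least 100 were PJA2 (root mean square difference 0.21), EMP1 (0.21), ITGA10 (0.27), TRIM23 (0.27) and CCN2 (0.27). EMP1, a membrane protein gene, ran from 7053 in untreated BRCA2-proficient cells to 1642 in BRCA2-deficient cells with both treatments. Among the 9 members the nearest pairs were SPRED1 with SPRED2 (0.10) and SPRY4 with ETV5 (0.14), and the farthest was SPRY2 with ETV4 (1.02). The groups share the libraries that went against their labels, and no test was made of these distances.

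Other genes of the pathway were taken in 5 lists: the ERK cascade and its regulators (18 genes), receptors and ligands (14), other feedback inhibitors and phosphatases (14), other ETS factors with their repressor CIC (14) and other ERK output genes (11). With GSK3i the receptors and ligands moved most evenly. In BRCA2-proficient cells 7 of 12 tested fell and none rose, with a median log2 fold change of -0.69, and in BRCA2-deficient cells 6 of 12 fell and none rose, with a median of -0.51. The receptor tyrosine kinase genes AXL (-1.50 and -1.34), ERBB2 (-1.14 and -1.27) and ERBB3 (-1.21 and -0.99) fell in both. Of 18 cascade genes, 1 rose and 4 fell in BRCA2-proficient cells and 1 rose and none fell in BRCA2-deficient cells. The one that rose was PTPN11 (0.55 and 0.67), which encodes the phosphatase SHP2. Of 13 other feedback genes tested, 1 rose and 4 fell, and 1 rose and 3 fell, with DUSP1, a nuclear MAP kinase phosphatase, at -1.75 and -1.20 and SPRED3 at -1.11 and -0.69. Among 14 ETS genes, 1 and 2 fell, ETV1, the third PEA3 group factor, by 1.80 (SE 0.16, adjusted p = 7.17e-27) and 1.52 (SE 0.25, adjusted p = 6.24e-08), the opposite of ETV4. Of 10 other output genes tested, 2 rose and 2 fell, and 1 rose and 1 fell: UPP1 rose in both (0.99 and 1.24) and EPHA2 fell in both (-0.74 and -0.59), and in BRCA2-proficient cells CCND1, for cyclin D1, rose (0.76) and FOS fell (-3.61, SE 0.88).

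Given after siβ-catenin in BRCA2-deficient cells, GSK3i lowered 4 of 12 receptors and ligands and raised 1, lowered 4 of 14 ETS genes and raised 1, raised 3 of 10 output genes and lowered 1, raised 1 and lowered 2 of 14 feedback genes, and lowered 1 of 18 cascade genes. ETV1 fell by 2.35 and UPP1 rose by 1.86 there. In BRCA2-proficient cells no list gene was called as labelled. Without both doubted libraries 4 of 11 output genes rose, 3 of 14 receptors and ligands fell, 1 ETS gene rose and 1 fell, and 1 cascade and 1 feedback gene rose, with AXL at -1.15, ETV1 at -1.40 and UPP1 at 1.35.

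The list genes called with siβ-catenin under GSK3i included the following. In BRCA2-proficient cells 2 of 10 output genes fell, CCND1 (-1.02) and LIF (-0.97), and in BRCA2-deficient cells 3 of 10, CCND1 (-1.13), LIF (-0.60) and TRIB1 (-1.28). ERBB2 rose (1.04 and 0.79) and DUSP1 rose (1.03 and 0.64), while RASA2, a GTPase-activating protein gene for RAS, fell (-0.75 and -0.99). ELK4 fell in both (-0.71 and -0.62), and ETV1 fell in BRCA2-deficient cells (-1.97, SE 0.28, adjusted p = 4.5e-10). SPRED3 rose in BRCA2-proficient cells as labelled (0.71), and ERBB3 rose (0.79) and ELK3 fell (-0.69) in BRCA2-deficient cells. Of these lists, 1 and 2 of 12 receptors and ligands rose in BRCA2-proficient and BRCA2-deficient cells respectively, 2 and 1 of 13 feedback genes rose and 1 fell in each, and 1 and 3 of 14 ETS genes fell. Without the doubted library CCND1 (-0.90), LIF (-0.73), RASA2 (-0.81), ELK4 (-0.63), ERBB2 (0.61) and DUSP1 (0.94) were still called in BRCA2-proficient cells. In that fit ETV1 (-0.69, adjusted p = 0.00527) was called lower and DUSP8 (0.68, adjusted p = 0.0402) higher too. DUSP1 and DUSP8 were the 2 of 13 feedback genes called higher there. Without GSK3i, ETV1 fell in both backgrounds (-1.63 and -1.12, and -1.08 without replicate 2 in BRCA2-proficient cells). The other list genes called there were ELK4 (-0.67) and DUSP8 (0.85) in BRCA2-deficient cells, and FGF2 (0.82), SPRY1 (-1.30), DUSP1 (-1.14) and FOS (-4.19) as labelled in BRCA2-proficient cells. Without replicate 2, FGF2 (0.66) and DUSP1 (-0.89) were still called, and CIC (-0.67), ERF (-0.56) and PHLDA2 (-0.93), which are named after their values were seen, were called lower too.

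In BRCA2-deficient against BRCA2-proficient cells, the other feedback genes were called in both directions, while as labelled no member was called higher. The counts are small, and this contrast was not tested. Untreated, 2 of 13 were higher and 1 lower as labelled, where 2.77% of all genes were higher and 4.14% lower. Under GSK3i 3 of 13 were higher and 1 lower, beside 3.76% and 3.05%. With both treatments 4 of 14 were higher and 2 lower, beside 3.38% and 4.36%. After siβ-catenin alone 4 of 14 were higher and 1 lower, beside 13.6% and 13.8%. The medians of these feedback genes, in that order, were 0.11, 0.35, 0.08 (0.19 without the doubted library) and 0.44 (0.33 without replicate 2). Under GSK3i the 3 higher were DUSP8, DUSP2 (1.05) and DUSP1 (0.94). Counted in either direction, list genes were called as follows. Untreated, 0 of 18 cascade genes, 1 of 12 receptors and ligands, 3 of 13 feedback genes, 1 of 14 ETS genes and 1 of 10 output genes were called. Under GSK3i the counts were 1, 2, 4, 0 and 0, and with both treatments 2, 1, 6 of 14, 2 and 0. After siβ-catenin alone they were 6, 5, 5 of 14, 1 and 4 as labelled and 4, 6, 5, 3 and 3 without replicate 2. DUSP8, a phosphatase for JNK and p38, was higher in BRCA2-deficient cells by 0.98 untreated, 1.49 under GSK3i and 1.40 with both treatments (1.23 without the doubted library). ERRFI1, an inhibitor of EGFR and a feedback gene too, was lower by 0.66, 0.96 and 1.23 (1.17 without it). ETV1 was lower untreated (-0.91) and with both treatments (-2.82, and -1.89 without it), and NRAS was lower under GSK3i (-0.51) and with both treatments (-0.65, and -0.73 without it). After siβ-catenin alone, as labelled, NRAS was at -1.17, DUSP8 at 1.31 and ERRFI1 at -0.54, all called. The interaction of background with GSK3i, and that with siβ-catenin under GSK3i, called none of the list genes. In BRCA2-deficient cells that of GSK3i with siβ-catenin called DUSP1 (0.88). As labelled, it called 8 in BRCA2-proficient cells, 6 higher and 2 lower, among them DUSP1 (2.15) and CCND1 (-0.80), which were at 1.83 and -0.67 without both doubted libraries.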

How the data were processed

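Polyadenylated RNA of 22 H1299 libraries (TruSeq Stranded) was sequenced. The authors deposited raw read counts per Ensembl gene (GRCh37). The submitters' processing notes name HISAT2 2.0.4, SAMtools 1.4, Picard 1.9.2 and featureCounts 1.5.0. Which annotation release and which strand setting the counting used was not given in the sources used here. Groups were taken from the labels.

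Counts were tested with DESeq2 1.42.0 (R 4.3.3, Wald test) over all genes of the 2 groups compared, after leaving out genes with fewer than 10 counts in more than 3 libraries, and called at a Benjamini-Hochberg adjusted p below 0.05 and a log2 fold change beyond 0.5. Interactions, over genes that reached 10 counts in 3 or more libraries, needed the adjusted p alone. Fits with 3 libraries left no gene out. Depth limits precision through counting error, which the fitted SE includes. The position on the GSK3i response used log2(count + 1). Alternatives were edgeR 4.0.16 (quasi-likelihood, TMM), DESeq2 with TMM, no filter, 1 model over all 8 groups, the replicate number as a block, leaving out each library, and, chosen after seeing the data, leaving out both libraries that went against their labels. The scripts were tested on simulated data. No 2 replicates agreed within sampling noise (chi-square per gene from 10.8 to 64.4 over 20 pairs).

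Same-numbered libraries deviated together: the correlation of their deviations from the group means was over 0.1 in 24 of 31 pairs (range -0.418 to 0.868), and in all pairs of the 7 comparisons with 3 pairs. The pairing comes from the replicate numbers of the labels.

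The members and lists were chosen with earlier results of these data known. Named genes were all members, BRCA2, CTNNB1 and AXIN2, the 5 genes nearest to DUSP6, and, per comparison and list, at most the 3 called genes with the largest change in each direction at a mean of at least 100 normalised counts.

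A result on 1 of the pathway list genes is not reported here.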

Additional observations from a re-analysis of the deposited data

Results flagged for a closer look

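In BRCA2-proficient cells the effect of GSK3i on SPRY2 and ETV4 differed between control siRNA and siβ-catenin by the DESeq2 interaction test, which is why both stand here. For SPRY2 the difference was 1.37 on the log2 scale (adjusted p = 3.47e-06): GSK3i moved it by -1.05 with control siRNA and by 0.33 after siβ-catenin as labelled, and without both libraries that went against their labels the difference was 1.20 (adjusted p = 1.8e-05). For ETV4 the difference was -1.03 (adjusted p = 0.0245), from 1.11 with control siRNA to 0.08 after siβ-catenin, and without both libraries it was -0.60 (adjusted p = 0.272). The remaining siβ-catenin library, replicate 3, stood at 45.1% of the GSK3i response, and the part of this in either difference was not tested.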

How the results depend on the processing

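The number of members called moved by over 1.5 times in these fits. By edgeR it was 0 for siβ-catenin without GSK3i in either background, 1, 2 and 3 for BRCA2 depletion untreated, under GSK3i and with both treatments, and 0 for the interaction of GSK3i with siβ-catenin in BRCA2-proficient cells. With the replicate block it was 4 for siβ-catenin without GSK3i in BRCA2-deficient cells. Without both doubted libraries it was 1 for GSK3i after siβ-catenin in BRCA2-proficient cells and 1 for that interaction, and DUSP5 reversed, to 0.66. The causes were not tested, beyond fewer libraries. Leaving out 1 library gave 2 to 5 members for siβ-catenin under GSK3i in each background, 0 to 5 and 0 to 4 without GSK3i, 0 to 4, 2 to 4 and 2 to 5 for BRCA2 depletion untreated, under GSK3i and after siβ-catenin (3 without BRCA2-deficient siβ-catenin replicate 1), and 1 to 3 for the interaction in BRCA2-proficient cells. Beside the calls named with the replicate block above, the block or pairing changed no other call. Over members and comparisons, TMM left 143 calls as they were and added 1 (SPRY2, BRCA2 depletion after siβ-catenin), no filter left 144, 1 model over all groups left 133, added 3 and lost 8, and edgeR left 127, added 1 and lost 16. With 2 or 3 libraries a group, and 1 in some fits, intervals are wide, and DUSP4 was too low to test at this depth.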
